A study of Arabidopsis thaliana with 8 samples.

Results

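Unprimed wild-type seedlings of Arabidopsis thaliana, accession Col-0, were profiled on Affymetrix ATH1 arrays at 4, 8, 24 and 48 h of a heat-memory experiment, and the values below compare the 48 h array with the 24 h array. These are 2 of the 8 arrays of the series. The other 6 arrays hold unprimed seedlings at 4 and 8 h and primed seedlings at all 4 time points, 1 array each. All seedlings grew on MS agar with 1% sucrose at 22 °C in 16 h of light (120 µE m-2 s-1) and 8 h of darkness, and were labelled as 5 days old at the start of the time course. The unprimed seedlings received no priming. The primed ones, used here as a second pair, had first been held at 37 °C for 1.5 h, then returned to 22 °C for 1.5 h, and last exposed to 44 °C for 45 min. Each sample was a pool of whole seedlings, so a lower level of a transcript can mean fewer cells that hold it or less of it per cell, and these cannot be told apart. The 24 h and 48 h labels lie 1 day apart and thus name the same hour of the day cycle, but for the actual hour of harvest the sources used here give no value.

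The array carries probe sets, groups of short probes that together report 1 transcript or a few similar ones. All 22746 probe sets that are not controls of the array were compared, of which 21194 are assigned to 1 gene, 1078 to several and 474 to none. Values are on a log2 scale with a floor at 2, so a difference of 1 is 2-fold, and a difference that starts or ends at the floor is limited by it. With 1 array per condition there was no replicate, no error and no test, and the spread between separate pools of seedlings is not known. Differences are therefore counted past a 2-fold limit and described gene by gene.

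Between germination and the first true leaves, an Arabidopsis seedling uses up the protein and oil that the embryo laid down in the seed, and its tissue comes to live on photosynthesis. Transcripts of storage proteins and late embryo proteins are made during seed maturation and are normally lost soon after germination, while those for light harvesting and carbon fixation dominate green cotyledons. Many other seedling transcripts follow the clock, the sugar status and the time of day, which is why a comparison at 1 labelled hour is of use.

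At 48 h, 353 probe sets (1.55% of all) lay at least 2-fold above their 24 h value and 266 (1.17%) at least 2-fold below it. The median difference over all probe sets was 0.00 and the quartiles were -0.12 and 0.13, with 8252 differences above 0 and 8229 below 0. Differences of 4-fold or more were found for 40 probe sets in the higher and 26 in the lower direction. Of all probe sets, 5904 (26.0%) lay within 0.05 of the floor on both arrays and could show no difference. Among the called ones, 17 of the higher set started from the floor at 24 h and 17 of the lower set ended on it at 48 h. The limit divides a continuous range: OSM34 (osmotin) and AT4G34750, both with a difference of 1.00, were counted as higher, whereas AT1G79970 and AT2G27980 at 0.99 were not. On the other side AT1G15870 and AT2G16270 at -1.0 were counted as lower, and AT2G25200 at -0.99 and AT5G59170 at -0.98 were not. The share of higher among the called probe sets was 57.0%, and 71.2% when both arrays were centred on common reference genes.

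**Figure D1:**
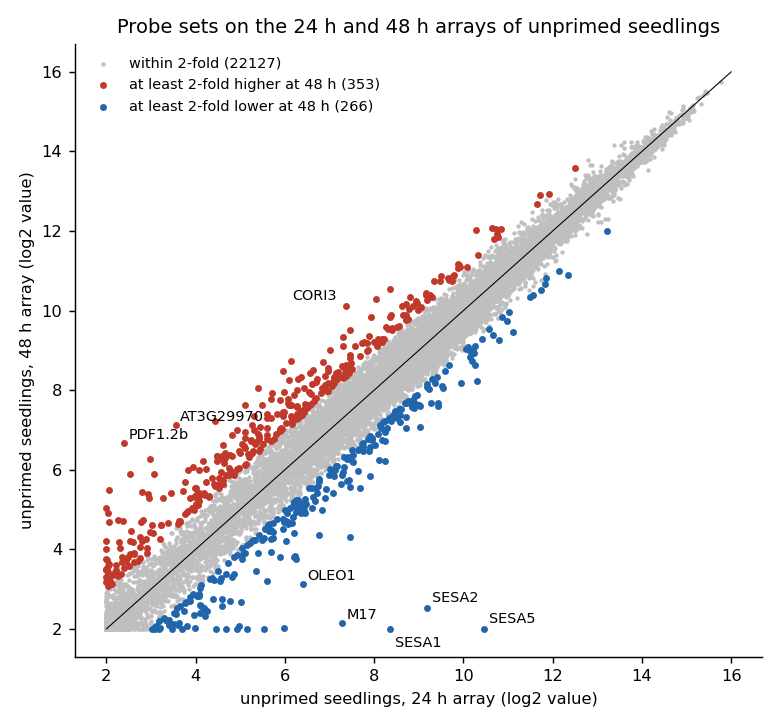
Each point is a probe set, with its log2 value on the unprimed 24 h array (horizontal) and on the unprimed 48 h array (vertical); the line marks equal values. The 353 red points lie at least 2-fold above the line and the 266 blue points at least 2-fold below it, and the lowest differences belong to seed storage genes such as SESA5, which went from 10.47 to the floor.

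The 24 h array stood apart in its control probe sets, and these values are given before the results. ATH1 carries control probe sets for the 5′ and the 3′ end of actin, ubiquitin and glyceraldehyde phosphate dehydrogenase transcripts, 5 such pairs for these 3 genes. The 5′ probe set for GAPDH read 10.29, 10.49, 9.30 and 10.03 on the unprimed 4, 8, 24 and 48 h arrays, and its 3′ partner read 13.19, 13.32, 13.16 and 13.30. The actin 5′ probe set read 8.88, 9.25, 8.27 and 9.07, with 14.02, 14.13, 14.15 and 14.09 at the 3′ end. All 5 of the 5′ probe sets were lowest on the 24 h array among the 4 unprimed arrays, and the median gap between the ends was 3.28 there against 2.78, 2.59 and 2.82 at 4, 8 and 48 h. The bacterial BioB spike-in controls moved the other way, as in BioB-5, which read 9.05, 9.35, 9.66 and 9.34. The part of these differences in the results was not tested.

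**Figure D2:**
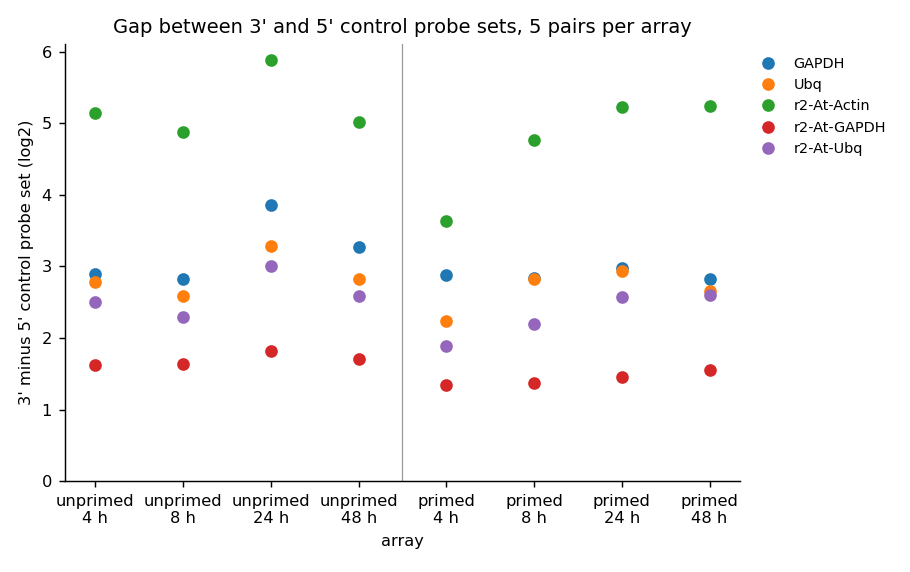
Each dot is the log2 value of a 3′ control probe set minus that of its 5′ partner on 1 array, for 5 pairs of the actin, GAPDH and ubiquitin controls (names starting with r2 are a second design). The unprimed 24 h array has the largest gap in each pair, for example 5.88 for actin against 5.02 on the unprimed 48 h array.

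To see which array a difference comes from, each called probe set was set against the unprimed 4 and 8 h arrays. Of the 353 higher probe sets, 115 (0.506% of all probe sets) had a 24 h value at least 2-fold below each of the other 3 unprimed arrays, and 111 (0.488%) had a 48 h value at least 2-fold above each of them. The other 127 had neither. Of the 266 lower probe sets, 84 (0.369%) had a 24 h value that was high alone and 61 (0.268%) had a 48 h value that was low alone. The 4 and 8 h samples come from other hours of the day, so they describe the range and are no replicates. With the mean of 4, 8 and 24 h in place of the 24 h array, 8 of the 91 named differences that were recomputed turned sign. With the mean of 4, 8 and 48 h in place of the 48 h array 10 did.

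The genes that were low at 24 h alone were mostly of middle level. Their median value over the 8 arrays was 7.22, against 5.15 for those high at 48 h alone and 7.08 for all probe sets. These medians depend in part on the rule. A value low alone needs the other 3 unprimed arrays above the floor, whereas a value high alone can leave them on it. AT3G49310 read 7.44, 7.90, 5.11 and 7.63 on the 4 unprimed arrays and between 7.63 and 8.28 on the primed ones. AS1, a MYB factor of leaf patterning, read 10.74, 11.15, 7.94 and 9.85. KIN10, the catalytic subunit of the energy-sensing kinase SnRK1, read 7.59, 7.63, 5.83 and 7.39. These 3 were chosen after their values were seen. UBC21, a ubiquitin-conjugating enzyme used as a reference gene, was also low at 24 h alone, with 10.85, 10.81, 9.68 and 10.76. It was the only one of 12 reference probe sets past the limit, at 1.08. The other 11 lay between -0.16 and 0.08, and ACT2 (actin) read 12.79 at 24 h and 12.87 at 48 h.

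The primed pair, 48 h minus 24 h, uses arrays that took no part in the calls. There, 160 probe sets (0.703%) passed the limit upward and 341 (1.5%) downward at 48 h, in seedlings that were also recovering from heat. Of the 353 probe sets higher in unprimed seedlings, 58 were at least 2-fold higher in primed ones too, which is 16.4% of the unprimed and 36.2% of the primed set, and 12 were lower. Of the 266 lower ones, 55 were also lower in primed seedlings (20.7% of the unprimed and 16.1% of the primed set) and 4 were higher. The position of the arrays went with this count. Among the 111 probe sets high at 48 h alone, 45 (40.5%) were also higher in the primed pair, and among the 61 low at 48 h alone, 22 (36.1%) were also lower. Among the 115 probe sets low at 24 h alone it was 3 (2.61%), and among the 84 high at 24 h alone 14 (16.7%). Some of these 84, such as SESA5 and EPR1, were at the floor at 24 h in primed seedlings and could not be lower there. How many were was not counted, so the share of 16.7% is limited by the floor.

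**Figure D3:**
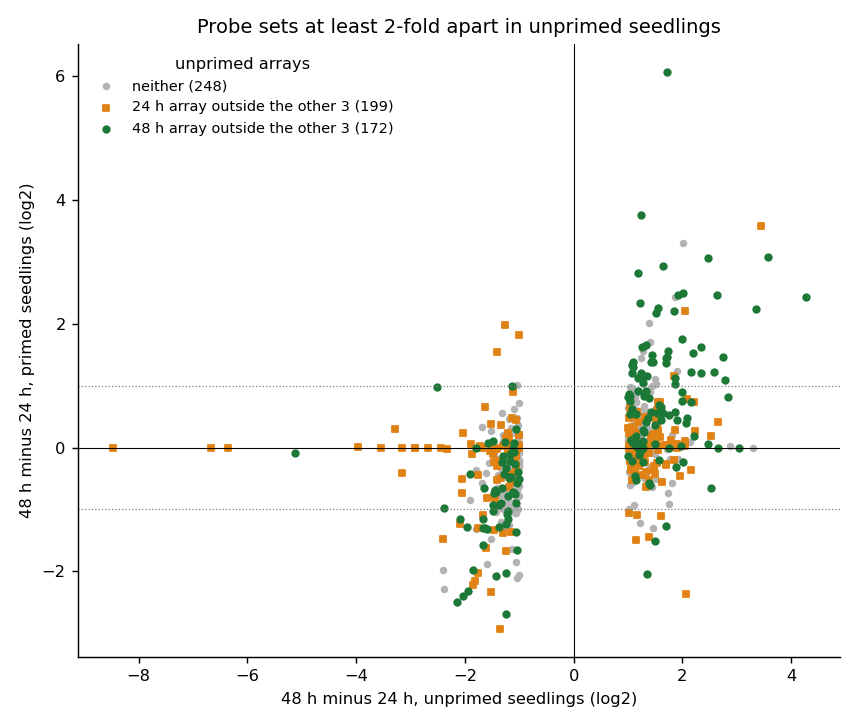
Each point is 1 of the 619 called probe sets, with its 48 h minus 24 h difference in unprimed (horizontal) and in primed seedlings (vertical), in log2 units; dotted lines mark 2-fold in the primed pair. Green points, where the unprimed 48 h array lay outside the other 3, had a primed median of 0.76 on the right and -0.73 on the left, and orange squares, where the 24 h array did, had medians of 0.00 and -0.02. Some orange squares on the left were at the floor at 24 h in primed seedlings and could not be lower there.

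Before the gene groups, the tissue and the label were checked. The list counts that follow stand beside 1.55% higher and 1.17% lower over all probe sets. Green tissue was plain on both arrays: the 18 probe sets of the light-harvesting antenna had median values of 14.80 at 24 h and 14.82 at 48 h, and the 18 of Rubisco and the Calvin cycle 13.90 and 14.00. Root transcripts were present at lower levels. Among the 27 root hair probe sets the median was 6.08 and 5.83, with RHS13 at 9.68 and 9.67, and among the 17 of the root endodermis, meristem and suberin 5.21 and 4.95, with CASP1 (Casparian strip) at 9.76 and 10.09 and PLT1 and PLT2 (root meristem) at the floor. None of the root probe sets differed by 2-fold. Of the heat genes used as a check of the label, HSP21 was at 2.0 on both arrays and FTSH6, a plastid protease, at 2.0 and 2.01. HSP101, a disaggregating chaperone, read 7.11 and 7.29, against 8.71 and 7.99 in primed seedlings. The remaining check gene, the heat factor HSFA2, passed the limit and was higher at 48 h. So was the small heat shock gene HSP18.2, which was not a check gene, and the values of both are given below with the heat list.

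Seed storage genes gave the largest differences of all. Of 19 probe sets for storage proteins and oil bodies, 9 were at least 2-fold lower at 48 h and none higher. Over all probe sets the shares were 1.17% and 1.55%. The median of the list was -0.81, with 14 values below 0. Without the probe sets whose 24 h value stood apart, the median was -0.02. On both arrays 4 of the list were at the floor. SESA5, a 2S albumin of the protein bodies, read 6.30, 2.19, 10.47 and 2.0 on the unprimed 4, 8, 24 and 48 h arrays. SESA2 read 6.89, 2.01, 9.19 and 2.52, and SESA1 read 3.81, 2.0, 8.36 and 2.0. Each was thus high at 24 h, lower at 4 h and near the floor at 8 and 48 h, so the course was not a steady loss. SESA3 read 2.06, 2.02, 5.98 and 2.02. OLEO1, an oleosin that coats oil bodies, read 4.72, 3.13, 6.41 and 3.13. CRU2, a 12S globulin, read 2.07, 2.0, 4.68 and 2.0. The differences were -8.47 for SESA5, -6.67 for SESA2, -6.36 for SESA1, -3.96 for SESA3, -3.28 for OLEO1 and -2.68 for CRU2. OLEO2 (-2.39), CRU3 (-1.69) and CRA1 (-1.34), a further oleosin and 2 further globulins, completed the group. Of these 9, 8 were high at 24 h alone, and OLEO2 was low at 48 h alone. The albumin genes are close copies of each other, so their probe sets may share signal. In primed seedlings none of the 19 differed by 2-fold, and SESA5, SESA2, SESA1 and CRU2 were at 2.0 at both 24 and 48 h, with SESA2 above the floor at 8 h (4.61).

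Late embryo genes were in part of another kind. Of 17 probe sets for embryo maturation and LEA proteins, which protect drying embryos, 4 were lower at 48 h, none was higher and 8 were at the floor on both arrays, with a median of 0.00. M17, a maturation gene, read 5.67, 6.38, 7.28 and 2.16 on the unprimed arrays and never above 2.22 on the primed ones. Here the 48 h array was the low one. EM6, a LEA protein, read 4.47, 6.43, 6.22 and 3.83 in unprimed and 5.71 and 3.42 in primed seedlings at 24 and 48 h. PER1, the seed 1-cysteine peroxiredoxin, read 7.47, 7.55, 8.25 and 6.22 in unprimed and 7.21 and 4.82 in primed seedlings. EM6 (-2.39 and -2.29) and PER1 (-2.03 and -2.39) were therefore lower in both pairs, unlike the albumins. RAB18, a dehydrin that responds to abscisic acid, read 5.43, 5.43, 6.93 and 5.52, with the 24 h array high alone.

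Enzymes that mobilize the oil reserve showed little. Of 21 probe sets, MLS (malate synthase of the glyoxylate cycle) was lower, with 5.48, 6.13, 5.54 and 4.29 in unprimed and 6.74 and 4.72 in primed seedlings at 24 and 48 h. Its partner ICL (isocitrate lyase) had -0.83 in unprimed and -1.63 in primed seedlings. A probe set shared by CSY3, a peroxisomal citrate synthase, and AT2G42780 was the 1 higher member, at 1.07. Outside the lists, EPR1, an extensin-like gene known from the endosperm of germinating seeds, was among the 12 lowest, with 3.21, 2.0, 5.16 and 2.0. AT2G37030 (auxin-responsive family; 2.0, 2.18, 5.54 and 2.0), AT3G56350 (a manganese superoxide dismutase; 2.01, 2.01, 4.93 and 2.01) and AT1G14950 (major latex protein-related; 2.07, 2.07, 4.98 and 2.07) had the same shape. All 4 were at or near the floor in the primed pair, with differences between -0.01 and 0.00, and could show no fall there. The differences of these and of the albumins ended at or near the floor, which limits their size. Their order mostly follows the values on the 24 h array.

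**Figure D4:**
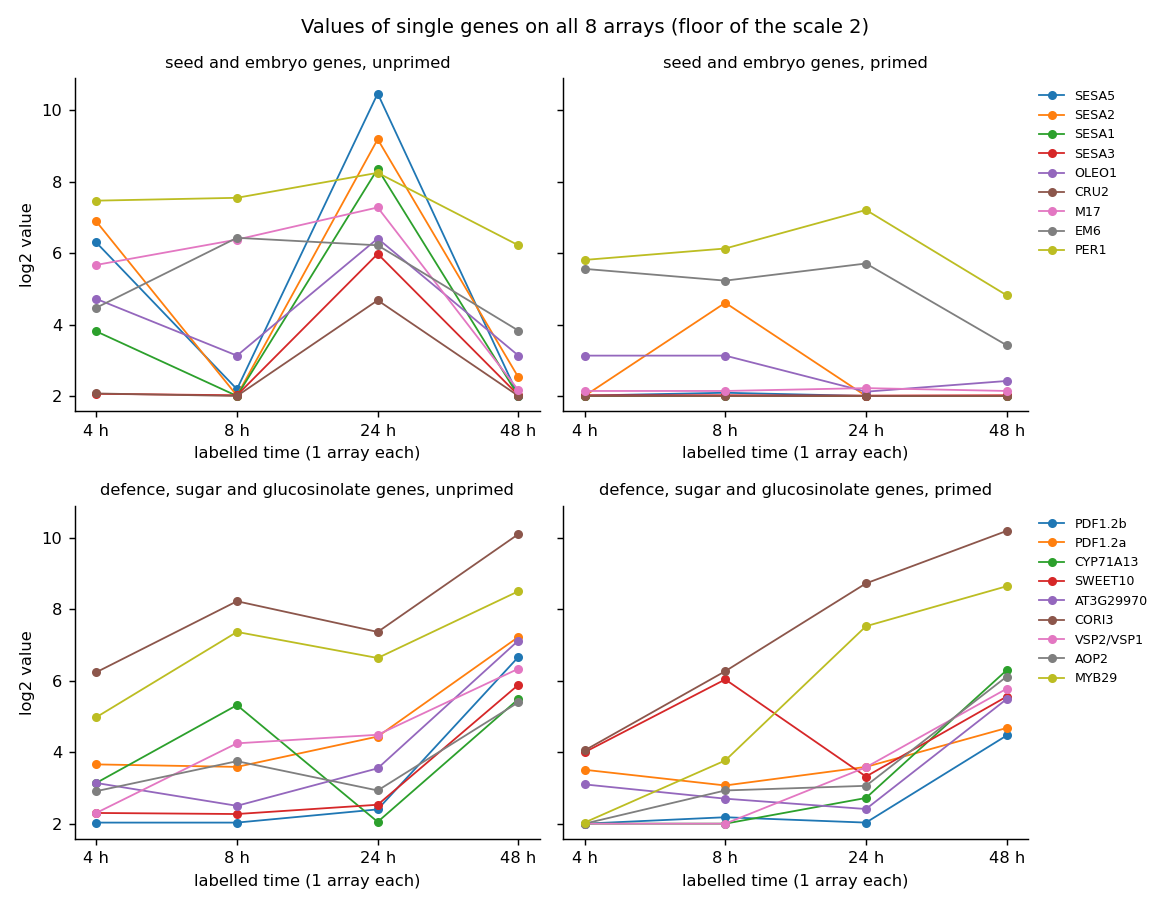
Log2 values of single genes on all 8 arrays, at the labelled times of unprimed (left) and primed (right) seedlings, 1 array per point; lines join the points of a gene. Upper panels show seed and embryo genes, where albumins such as SESA5 peaked at 10.47 on the unprimed 24 h array; lower panels show defence, sugar and glucosinolate genes, 8 of 9 of them highest at 48 h among the unprimed arrays by at least 1.

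Of 24 dark and sugar starvation probe sets, 6 were at least 2-fold lower and 1 was higher, against 1.17% and 1.55% over all. The list had 20 values below 0 and a median of -0.52, against 0.00 for all probe sets. In the primed pair the median was -0.78, with 8 lower and none higher. With the mean of 4, 8 and 24 h in place of 24 h, the unprimed median was 0.16, and ASN1 (0.68) and TPS11 (0.55) turned sign. ASN1, the asparagine synthetase that darkness induces, read 6.6, 2.0, 8.10 and 6.25 in unprimed and 7.23 and 5.01 in primed seedlings at 24 and 48 h. BCAT2, an enzyme of branched-chain amino acid breakdown, read 6.25, 2.76, 6.21 and 3.81, with 6.13 and 4.16 in the primed pair. Both were lowest at 8 h, and their 48 h values lay inside the range of the other times. TPS11 (-1.16) and TPS9 (-1.17), class II trehalose phosphate synthases, EXL2 (-1.12), an exordium-like gene, and BT2 (-1.06), a BTB-TAZ scaffold protein, were the other lower members. DIN11, a dark-inducible dioxygenase, was higher, at 1.15. SEN1, a classic dark marker, had -0.91 and -1.71 in the 2 pairs.

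Of 18 low-oxygen probe sets, 3 were lower and 1 higher, against 1.17% and 1.55% over all, with a median of -0.08. LBD41, a LOB-domain factor, read 6.07, 5.61, 9.43 and 7.61, and HRA1, a trihelix factor that restrains the hypoxia response, read 7.56, 6.64, 9.43 and 7.68. SRO5, a gene related to RCD1, read 3.45, 4.24, 7.47 and 4.32. For all 3 the 24 h array was high alone. LBD41 and HRA1 were lower in the primed pair too (-2.15 and -2.03), whereas SRO5 was at -0.41. SUS4, a sucrose synthase, was higher, at 1.19 in unprimed and 2.82 in primed seedlings. The fermentation enzymes ADH1 (12.48 and 12.46 at 24 and 48 h) and PDC1 (10.41 and 10.44) did not pass the limit.

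Defence genes gave several of the highest values among the differences. Of 21 probe sets for salicylate, thionin and defensin defence, 5 were higher at 48 h and none lower, with a median of 0.14, against 1.55% higher and 1.17% lower over all probe sets. Primed seedlings had 3 of the list higher and 3 lower. In unprimed seedlings 11 values of the list were above 0 and 6 below. The salicylate genes of the list did not move together: PR1 and PR2 were at 2.0 on both arrays. ICS1 (-0.03), PR5 (-0.03), EDS1 (-0.39), PAD4 (-0.48) and WRKY70 (0.22) stayed within the limit. PDF1.2b, a plant defensin that jasmonate and ethylene induce, read 2.03, 2.03, 2.40 and 6.67 on the unprimed arrays, and 2.03 and 4.47 in primed seedlings at 24 and 48 h. PDF1.2a, its close relative, read 3.66, 3.59, 4.44 and 7.23, with 3.59 and 4.68 in the primed pair. Both were high at 48 h alone and in both pairs, by 4.27 and 2.79 in unprimed seedlings. Because the 2 defensin genes are near copies, their probe sets may share signal. CYP71A13, which makes an intermediate of the phytoalexin camalexin, read 3.14, 5.32, 2.05 and 5.49, and 2.72 and 6.30 in the primed pair. CYP71A12, a close copy of it with the same kind of reaction but outside this list, read 2.02, 2.02, 2.0 and 5.05. CYP71A12 stayed at 2.0 in the primed pair. PAD3, a further camalexin gene and a member of this list, stayed within the limit. It read 4.83 and 4.97 at 24 and 48 h in unprimed seedlings, and 4.76 at both times in primed ones. FMO1, an enzyme of systemic acquired resistance, read 2.1, 2.34, 2.34 and 3.68. AT1G66100, a thionin, read 4.23, 3.5, 7.83 and 9.18, and was lower in the primed pair (5.34 and 3.3).

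Of 27 probe sets for jasmonate synthesis and response, 2 were higher and none lower, against 1.55% and 1.17% over all probe sets. The list median was 0.00. CORI3, a cystine lyase that coronatine and jasmonate induce, read 6.24, 8.23, 7.37 and 10.11, and 8.73 and 10.20 in the primed pair. A probe set shared by VSP2 and VSP1, vegetative storage proteins of leaves, read 2.3, 4.25, 4.49 and 6.34, and 3.58 and 5.78 in the primed pair. The biosynthetic gene LOX2 had 0.82 and 1.86. Of 21 rapid touch and wound probe sets, ERF104 (an ethylene response factor) was higher, at 1.50, and CML38 (a calmodulin-like protein) lower, at -1.16. The median was -0.12.

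Cytochrome P450 genes, oxidases of secondary metabolism, were counted as a family: of 204 probe sets, 11 were higher and 2 lower, with a median of 0.00, against 1.55% and 1.17% over all probe sets. The 35 probe sets with CYP71 in their gene name, set apart after their values were seen, held 8 of the higher and 1 of the lower ones. The other 169 held 3 and 1. PAD3 is also a CYP71 gene, but it goes by another name here and was not among the 35. Its difference was 0.14. Among the 8 were CYP71B22 (2.05, 2.05, 2.27 and 4.75), CYP71B23 (5.82, 4.14, 3.94 and 6.08) and CYP71B4 (4.41, 4.06, 5.97 and 7.96). In the primed pair CYP71B22 and CYP71B23 had 0.06 and 0.09, and CYP71A13 (3.58) and CYP71B13 (1.15) were the 2 family members past the limit upward, against 9 downward. The lower members were CYP705A8 (-1.38) and a probe set shared by CYP71A14 and CYP71A15 (-1.14). Of 69 class III peroxidase probe sets, 2 were higher and 3 lower, where all probe sets gave 1.55% and 1.17%. AT4G36430 (6.35, 6.67, 6.29 and 8.29) and the probe set shared by AT2G18150 and AT2G18140 (2.25, 2.25, 2.05 and 4.68) were higher in the primed pair as well, by 1.75 and 2.46. Of the lower ones, AT5G24070 (-1.24) was lower in the primed pair too (-1.23), AT5G19890 (-1.27) was higher there (1.98), and AT1G49570 (-1.31) was within the limit (0.56). Of 46 glutathione S-transferase probe sets, GSTF14 (2.06) and GSTU28 (1.47) were higher and GSTF12 (-1.01) lower. Of 64 lipid transfer protein probe sets, 1 was higher and 3, SESA5 included, were lower.

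Glucosinolates are the sulfur-containing defence compounds of the cabbage order. Of 32 probe sets for their synthesis and breakdown, 3 were higher and none lower, against 1.55% and 1.17% over all probe sets. The list had 27 values above 0 and a median of 0.42, against 0.62 with 6 higher in the primed pair. AOP2, a side-chain enzyme known to be non-functional in Col-0, read 2.91, 3.75, 2.93 and 5.40 in unprimed and 3.06 and 6.12 in primed seedlings. MYB29, a regulator of the aliphatic branch, read 4.98, 7.37, 6.64 and 8.51, and 7.53 and 8.65 in the primed pair. FMOGS-OX1, an S-oxygenase of the side chain, read 7.70, 8.68, 8.72 and 10.16, and 8.10 and 9.60 in the primed pair. All 3 were high at 48 h alone and past the limit in both pairs.

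Of 14 sulfur deficiency probe sets, 3 were higher and none lower, against 1.55% and 1.17% over all. The list had 12 values above 0 and none below, and the median was 0.58. SULTR4-2, which exports sulfate from the vacuole, read 5.15, 6.94, 6.85 and 8.71. LSU1, a marker of low sulfur, read 5.22, 6.29, 5.23 and 6.72, and SHM7, a serine hydroxymethyltransferase, read 5.27, 6.88, 5.41 and 6.86. For LSU1 and SHM7 the 48 h value lay closer to the 8 h than to the 24 h value. APR1, APR2 and APR3, the sulfate-reducing enzymes, had 0.76, 0.93 and 0.79. In the primed pair the list had a median of 0.28, with 9 values above 0 and 3 below, and SULTR4-2 (1.02) was its only member past the limit.

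Other nutrient lists gave single genes, to be set beside 1.55% higher and 1.17% lower over all probe sets. Of 16 iron deficiency probe sets, NAS1, which makes the metal chelator nicotianamine (9.33, 10.83, 9.88 and 11.18), F6H1, of coumarin synthesis (1.05), and BTS, a ubiquitin ligase that limits the response (1.01), were higher. The uptake transporter IRT1 had -0.24, and NAS3, outside the list, read 2.75, 4.97, 5.96 and 8.49. Of 20 phosphate starvation probe sets, SPX1, an inositol pyrophosphate sensor, read 10.20, 11.32, 9.35 and 10.75 and was higher in both pairs (1.4 and 1.71). G3Pp1, a glycerol-3-phosphate permease, was low at 24 h alone, with 8.45, 9.17, 5.71 and 7.92, and RNS1, a ribonuclease, was lower, at -1.91. None of 20 nitrate and 7 iron storage probe sets passed the limit. SWEET10, a sugar transporter, was among the 12 highest, with 2.3, 2.27, 2.53 and 5.89 in unprimed and 3.32 and 5.56 in primed seedlings.

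**Figure D5:**
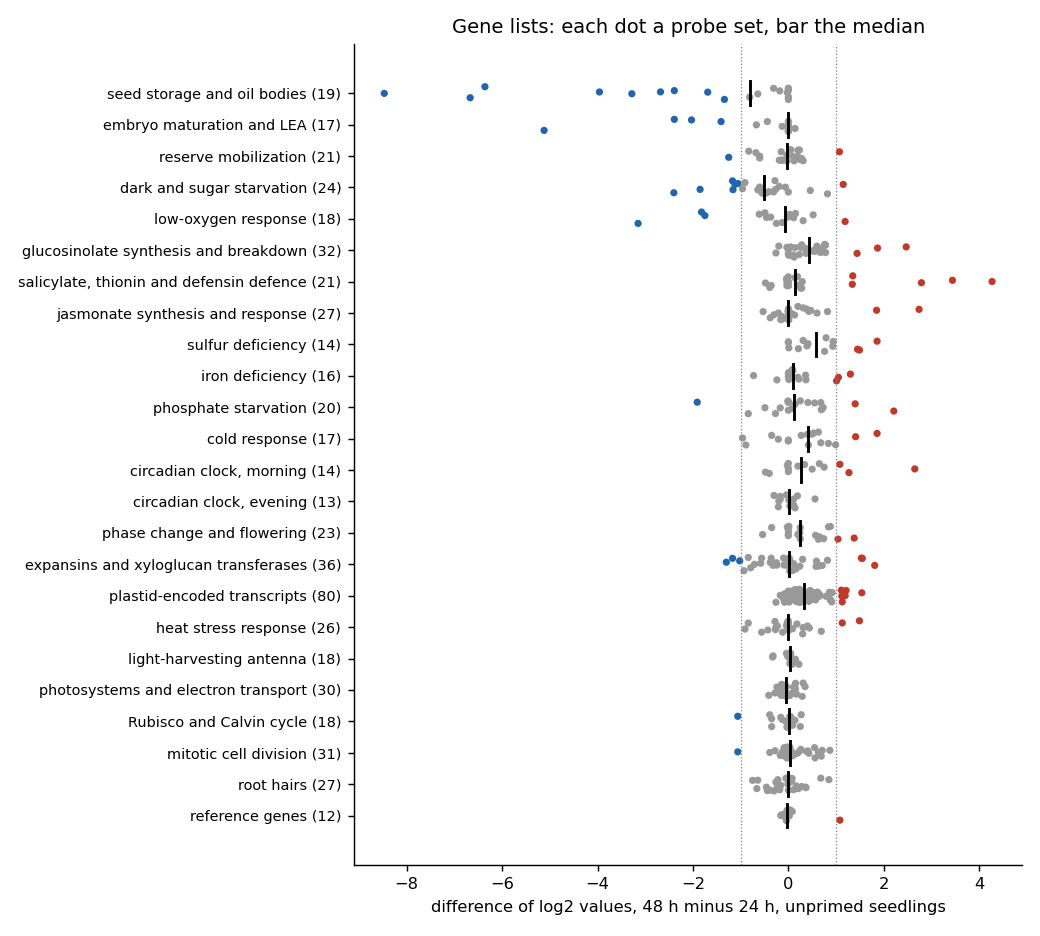
Differences of log2 values, 48 h minus 24 h in unprimed seedlings, for the probe sets of 24 gene lists (number in brackets); bars are medians, dotted lines the 2-fold limits, red and blue dots lie past them. Storage genes reach -8.47 on the left, the list with the largest median on the right is sulfur deficiency at 0.58, and the antenna and photosystem lists stay within -0.41 and 0.35.

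Some clock genes read differently at the same labelled hour. Of 14 morning probe sets 3 were higher and none lower, against 1.55% and 1.17% over all, with a list median of 0.27. That median was 1.21 with the mean of 4, 8 and 24 h in place of 24 h and -0.52 with the mean of 4, 8 and 48 h in place of 48 h. The probe set shared by PRR9, a morning pseudo-response regulator, and AT2G46670 read 2.19, 2.26, 5.40 and 8.05. LNK3, a transcriptional co-regulator, read 2.74, 3.11, 9.48 and 10.75, and RVE7, a MYB factor of the CCA1 family, read 6.17, 7.96, 9.19 and 10.27. The core genes moved less: CCA1 read 4.92 and 5.12 and LHY 2.67 and 2.67 at 24 and 48 h. In the primed pair PRR9 read 8.40 on both arrays, and CCA1 (8.87 and 7.46) and LHY (7.23 and 4.15) were lower at 48 h. None of 13 evening probe sets was past the limit in either pair, with TOC1 at -0.21 and GI at 0.11 in unprimed seedlings. Of 20 light signalling probe sets, SPA1, a repressor of photomorphogenesis, was higher, at 1.34, and low at 24 h alone.

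Of 17 cold response probe sets, COR413IM1 (5.71, 4.96, 5.90 and 7.76) and COR15B (6.66, 4.93, 6.54 and 7.95), both proteins of the chloroplast, were higher, with a list median of 0.42. The primed pair gave 0.58 and -0.60 for these genes. Of 26 heat stress probe sets, HSP18.2, a cytosolic small heat shock protein (3.57, 3.66, 5.95 and 7.44), and HSFA2, the heat factor of the memory response (3.11, 4.53, 2.40 and 3.53), were higher at 48 h, and none was lower. Primed seedlings held HSP18.2 at 13.43 and 11.92. The list median was 0.00. Of 13 abscisic acid probe sets, CYP707A2, which breaks down the hormone, was higher, at 1.26.

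Growth genes were divided. Of 36 expansin and xyloglucan transferase probe sets, 3 were higher and 3 lower, against 1.55% and 1.17% over all probe sets. The list median was 0.00. The higher ones were expansins, which loosen walls: EXPA4 (8.06, 9.08, 7.30 and 9.11), EXPA15 (8.06, 8.55, 6.6 and 8.15) and EXPA5 (9.11, 9.33, 7.57 and 9.10). For EXPA5 and EXPA15 the 24 h array was low alone. The lower ones were xyloglucan transferases: XTH15 (10.65, 9.50, 10.23 and 8.93), XTH30 (8.60, 8.02, 8.82 and 7.65) and XTH23 (10.25, 9.74, 10.86 and 9.84). None of these 6 passed the limit in the primed pair. Among the listed auxin (23 probe sets) and cytokinin (17) response genes, SAUR16 (1.49), CKX4 (1.07), which degrades cytokinin, and ARR16 (1.01) were higher. No listed one was lower. Outside these lists, SAUR28 (-1.41) and AT2G37030 (-3.54), of the auxin-responsive family, were lower. SAUR16 was also higher in the primed pair, at 1.11.

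Developmental genes showed few differences. Of 23 probe sets for phase change and flowering, TOE3 (1.38), an AP2-type repressor, and SPL9 (1.04), a promoter of the adult phase, were higher and none was lower, with a median of 0.24. Of 29 for stomata, trichomes and leaves, GL1, the trichome MYB factor (3.59, 4.83, 4.25 and 2.46), and SDD1, a protease that limits stomata (2.59, 2.52, 3.58 and 2.52), were lower. NAP, a senescence NAC factor, was the only higher member of 9 for chlorophyll breakdown, with 2.02, 2.0, 2.56 and 4.45. Of 28 flavonoid probe sets, MYB111 was higher (1.16) and GSTF12 lower (-1.01). Of 31 mitotic probe sets, CYCB3-1 was lower (4.72 and 3.66), and 16 values were above 0 and 15 below, whereas in the primed pair 30 were above 0, with a median of 0.28. None of 13 DNA replication, 22 core histone, 22 chlorophyll synthesis, 17 aquaporin or 16 xylem probe sets was past the limit. For DNA replication 12 of 13 values were below 0, with a median of -0.24, against 0.04 in the primed pair.

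Nuclear photosynthesis genes had medians near 0, and the differences of plastid-encoded ones were mostly above 0. In the nucleus, none of 18 antenna and 30 photosystem probe sets passed the limit, with medians of 0.04 and -0.05. Among 18 for Rubisco and the Calvin cycle, 1 probe set shared by RPI3 and TIM23-3 was lower, at -1.06, while the other probe set for RPI3 read 13.69 and 13.74. Of 80 plastid-encoded probe sets, 7 were higher and none lower, against 1.55% and 1.17% over all. Values above 0 were found for 69, and the median was 0.34. ATCG00520 read 10.97, 10.86, 8.81 and 10.35, and ATCG00680, for the photosystem II protein CP47, read 11.48, 11.33, 9.93 and 11.09. In all 7 the 24 h array was low alone. In the primed pair 67 of the 80 were below 0, with a median of -0.18. Of 106 probe sets with a mitochondrially encoded gene, 61 also hold a nuclear gene, and 65 were at the floor on both arrays. Past the limit, 1 was higher and 3 were lower, against 1.55% and 1.17% over all probe sets. ATMG01040 (-1.31) has no nuclear partner. The other lower ones were shared by ATMG01190 and AT2G07698 (-1.2) and by ATMG00040, AT2G07671 and ATMG01080 (-1.05). The higher one, shared by ATMG00513 and AT2G07711, read 8.15, 7.56, 4.81 and 6.88, with the 24 h array low alone, and had -2.36 in the primed pair. Primed seedlings had 24 of the 106 lower and none higher. Of 182 cytosolic ribosomal protein probe sets, 148 were below 0 with a median of -0.15, and AT2G32220 was the 1 past the limit, at -1.32. The primed pair had 123 of the 182 below 0, with a median of -0.06.

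Some of the genes that passed the limit in both pairs belong to none of the lists and were chosen after their values were seen. SEP3, a MADS factor of flower development, read 7.11, 7.87, 8.36 and 10.55 on the unprimed arrays, and 8.88 and 10.41 in primed seedlings at 24 and 48 h. SVL3, of the glycerophosphodiesterase family, was at 2.0 on 6 arrays and read 4.02 and 4.50 at 48 h in unprimed and primed seedlings. GILT, a thiol reductase, was likewise on the floor on 6 arrays and read 3.72 and 8.08 at 48 h. Both were thus above the floor at 48 h alone, in both treatments. AT3G29970, annotated as germination-related, read 3.14, 2.50, 3.55 and 7.13, with 2.41 and 5.49 in the primed pair. AT4G33720, a pathogenesis-related protein, read 5.6, 8.51, 9.91 and 11.15, with 6.32 and 10.08 in the primed pair.

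On the lower side of both pairs the genes were chosen in the same way. AGP30, an arabinogalactan protein known from roots, read 11.13, 9.67, 10.31 and 8.22, with 10.54 and 9.38 in the primed pair. SKS15, a SKU5-like protein written sks15 in the reference, read 8.55, 8.12, 7.68 and 5.53, with 7.73 and 5.24. AT3G19430 and AT4G27400, both annotated as LEA-related, read 9.03 and 7.07 and 7.63 and 5.97 at 24 and 48 h, and were low on the 48 h array alone. Other genes lower in both pairs were the gibberellin oxidases GA20OX2 (4.56 and 3.27 in unprimed, 4.64 and 3.26 in primed seedlings) and GA3OX1 (6.43 and 5.10, and 6.78 and 5.57), and the rest of their pathway was not counted.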

How the data were processed

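Total RNA of 8 pools of whole seedlings was hybridized to ATH1 arrays by a service provider, 1 array per condition. The values deposited by the authors are log2 signals, already normalized across arrays, in 2 tables that held the same values in every cell. GCRMA and RMA, with no version, are named in the notes that the submitters gave on processing. For the genome build, the sources used here give no name. These values give no read depth, and the number of arrays limits their precision. The 4 columns of the authors' primed-against-unprimed differences were not used. Differences were taken from the deposited values with Python 3.11.15 and pandas 2.3.3, rounded to 2 decimals and counted at 1 log2 unit, with 64 array control probe sets left out. Counting was tested on simulated data with large planted differences, little noise and no values at the floor. That test checks the counting alone and not how the real values vary. Gene names came from the file and from the RefSeq TAIR10.1 table.

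The comparison, the 39 gene lists and the 7 gene families (found by locus prefix or by words in the file's annotation) were chosen with earlier results of these data known. A probe set belongs to a list, or to a family found by locus prefix, if any of its genes does, and to the other families by the words of its annotation. Genes were named as follows: the 12 highest and 12 lowest single-gene probe sets, list members past the limit (or the largest 4), HSP21, HSP101, HSFA2, FTSH6 and ACT2, and 2 probe sets on each side of the limit. Other genes, among them list members within the limit such as ADH1 and IRT1, were named after their values were seen. Alternatives were quantile normalization, centring on reference genes, a filter on dim probe sets, a raised floor, the other table, means over 3 unprimed arrays, other limits and single-gene probe sets.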

Additional observations from a re-analysis of the deposited data

Results flagged for a closer look

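In 16 probe sets the unprimed and the primed pair lay past 2-fold in opposite directions, with 1 array per condition, and the difference between the pairs was not tested. Lower at 48 h in unprimed and higher in primed seedlings were SAUR28 (-1.41 and 1.54), the peroxidase AT5G19890 (-1.27 and 1.98), the glutaredoxin AT1G03020 (-1.05 and 1.01) and the phloem lectin PP2-A6 (-1.0 and 1.82). Higher in unprimed and lower in primed seedlings was the small heat shock protein HSP18.2 (1.49 and -1.51), which in primed seedlings stood at 13.43 and 11.92 after the heat treatment. The same direction was found for the thionin AT1G66100 (1.35 and -2.04), the elicitor peptide precursor PROPEP5 (1.46 and -1.30), the hydrolase AT1G73480 (1.69 and -1.27) and the Ole e 1 family gene AT5G15780 (1.61 and -1.11). It was also found for the sugar transporter SWEET2 (1.14 and -1.49), the homeobox gene WOX2 (1.17 and -1.09), the AP2 factor DEAR2 (1.02 and -1.06), the oxygenase AT5G05600 (1.02 and -1.0), AT1G13650 (1.22 and -1.22) and AT1G50970 (1.38 and -1.44). A probe set shared by ATMG00513 and AT2G07711, for a mitochondrial NADH dehydrogenase subunit, had 2.07 and -2.36. In 6 of the 12 that were higher in unprimed and lower in primed seedlings, the unprimed 24 h value was low alone. These were DEAR2, SWEET2, WOX2, AT1G50970, AT5G15780 and the ATMG00513 probe set. Among all 353 higher probe sets, 115 had a 24 h value low alone. That array had the lowest 5′ control values of the unprimed course, and a bearing of this on the opposite directions was not tested.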

How the results depend on the processing

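No paired analysis was possible because each condition has 1 array, and for the same reason no replicate could be left out. The counts of 353 higher and 266 lower probe sets stayed within 1.5 times under quantile normalization (338 and 273), centring on reference genes (472 and 191), the filter on dim probe sets (287 and 194), the raised floor (345 and 255), the other table (353 and 266), single-gene probe sets (331 and 253) and both means over 3 unprimed arrays (397 and 281 with 4, 8 and 24 h in place of 24 h, 357 and 323 with 4, 8 and 48 h in place of 48 h). They were 1270 and 1026 at 1.5-fold and 40 and 26 at 4-fold. Leaving out probe sets whose 24 h value stood apart, an alternative chosen after seeing the data, gave 238 and 182.

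List medians moved by more than 1.5-fold (0.585) as follows, and the causes were not tested beyond what the alternatives do by construction. The storage list went from -0.81 to -0.22 with the mean of 4, 8 and 24 h and to -0.02 without probe sets where the 24 h array stood apart. The embryo list went from 0.00 to -1.72 without dim probe sets. With the mean of 4, 8 and 24 h in place of 24 h, root hairs had -0.65, morning clock genes 1.21, starvation genes 0.16 and flavonoid genes -0.85. With the mean of 4, 8 and 48 h in place of 48 h, morning clock genes had -0.52 and flavonoid genes 0.72.

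The 91 named probe sets recomputed were the 12 highest, the 12 lowest, list members past the limit, the heat check genes and ACT2. Genes named only for other reasons, such as AS1, SEP3 and AGP30, were not recomputed. Of the 91, none reversed under the other alternatives. With the mean of 4, 8 and 24 h, 8 reversed: ARR16 (-0.42), ASN1 (0.68), BTS (-0.15), CML38 (1.59), CYCB3-1 (0.16), LBD41 (0.57), MYB111 (-0.81) and TPS11 (0.55). With the mean of 4, 8 and 48 h, 10 reversed: AT1G66100 (-2.19), PRR9 with AT2G46670 (-1.23), COR15B (-0.03), GSTF12 (0.30), HSP18.2 (-1.06), LNK3 (-3.95), NAS3 (-0.56), RVE7 (-1.06), SUS4 (-0.49) and the VSP2 and VSP1 probe set (-0.19). These means mix other hours of the day with the 24 h or 48 h array. Values within 0.05 of the floor limit the size of the differences.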
